A study of Mus musculus with 12 samples.

Results

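The 10 genes described here encode secreted antimicrobial proteins, peptidoglycan recognition proteins and a peptide that the skin can release against microbes, namely Defb1, Defb6, Slpi, Lcn2, Pglyrp1, Pglyrp3, Pglyrp4, Ang, Ang2 and Npy. They were taken by gene symbol from the deposited count table, and all 10 were found among its 14533 genes. The table holds mRNA sequencing of non-lesional dorsal epidermis from 12 untreated C57BL/6 mice, with 1 library per mouse. All mice carried the floxed Pparg allele on both chromosomes (Pparg flox/flox), where loxP sites flank part of the gene for PPARγ, a lipid-activated nuclear receptor. The 6 WT mice were Cre-/- siblings (3 female, 3 male), and the 6 Pparg-/-epi mice carried Cre driven by the cytokeratin 14 promoter as Cre+/- (4 female, 2 male). That promoter is active in basal keratinocytes of the epidermis and hair follicles, and a deletion made there passes to the cells that descend from them, whereas cells of other lineages in the scraping, such as fibroblasts and immune cells, keep an intact Pparg. The labels gave ages of 8 to 13 weeks in both groups, while the study's supplement lists other ages for some of the mice, and they gave RNA integrity numbers (RIN) of 5.9 to 8.6 in the WT group and 5.7 to 8.6 in the other.

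Keratinocytes make antimicrobial proteins constantly at low levels and make more when the barrier is broken or when microbes or cytokines are sensed. Beta-defensins are small cationic peptides that disrupt microbial membranes. Peptidoglycan recognition proteins bind the cell wall polymer of bacteria, and lipocalin 2 withholds iron by binding bacterial siderophores. Several of these proteins are also stored in the granules of neutrophils, so their mRNA in skin can come from keratinocytes or from other cells. In bulk tissue, fewer cells of a type and less RNA per cell cannot be told apart.

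Total counts ranged from 10120840 to 18851255 per library, and 3 counts, the level below which a gene was treated as barely seen, were worth 0.159 to 0.296 CPM, the counts of a gene scaled to a common library total. The keratinocyte genes Krt10 and Krt5 were at 18400 ± 5740 and 5310 ± 1450 CPM in WT mice (SD, n = 6), in tissue labelled as epidermis. The epidermis was scraped into the superficial dermis, and genes of other tissues varied between mice: 6 skeletal muscle genes summed to between 16.9 and 9330 CPM in WT and between 17.3 and 402 CPM in Pparg-/-epi mice. Pparg itself had 59, 269, 5, 15, 58 and 13 counts in WT replicates 1 to 6 and 100, 107, 89, 16, 32 and 25 counts in Pparg-/-epi replicates 7 to 12. The counts cover the whole gene, including exons that remain after excision, and so do not check the genotype. WT replicate 2 stood apart from the WT mice in several of the genes below and had the lowest sum of keratinocyte markers (22200 CPM) and the highest sum of macrophage markers (895 CPM) of all 12 mice.

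The 250 bases before the transcription start are shown for the 4 altered genes in which a searched motif was found, to show which regulatory letters lie in front of them. The sequences are from RefSeq (GRCm38.p6, the assembly also called mm10), which held an entry for Defb6, Slpi, Lcn2, Pglyrp1, Ang and Npy, and they run 5′ to 3′ on the strand of the gene. Capitals mark a match to TTGCNNAA, a letter pattern of the C/EBP type, in Defb6, Slpi and Lcn2, and matches to GGAAANNCC, a pattern of the NF-kB type, in Pglyrp1, each searched on both strands.
Defb6, chr8:19225228-19225477, plus strand: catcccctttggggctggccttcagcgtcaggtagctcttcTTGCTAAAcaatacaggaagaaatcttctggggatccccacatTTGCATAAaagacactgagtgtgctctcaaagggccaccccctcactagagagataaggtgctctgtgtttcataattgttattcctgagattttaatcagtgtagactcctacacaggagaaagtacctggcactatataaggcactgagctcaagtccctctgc
Slpi, chr2:164356508-164356757, minus strand: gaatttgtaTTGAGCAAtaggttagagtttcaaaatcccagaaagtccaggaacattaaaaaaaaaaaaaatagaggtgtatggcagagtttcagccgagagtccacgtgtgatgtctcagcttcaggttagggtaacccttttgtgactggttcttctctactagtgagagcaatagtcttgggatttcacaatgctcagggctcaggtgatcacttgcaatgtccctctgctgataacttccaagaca
Lcn2, chr2:32387740-32387989, minus strand: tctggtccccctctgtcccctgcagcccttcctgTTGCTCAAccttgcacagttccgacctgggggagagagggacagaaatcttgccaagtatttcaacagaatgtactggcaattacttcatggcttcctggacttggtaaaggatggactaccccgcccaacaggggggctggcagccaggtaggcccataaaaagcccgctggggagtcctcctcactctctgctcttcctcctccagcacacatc
Pglyrp1, chr7:18884440-18884689, plus strand: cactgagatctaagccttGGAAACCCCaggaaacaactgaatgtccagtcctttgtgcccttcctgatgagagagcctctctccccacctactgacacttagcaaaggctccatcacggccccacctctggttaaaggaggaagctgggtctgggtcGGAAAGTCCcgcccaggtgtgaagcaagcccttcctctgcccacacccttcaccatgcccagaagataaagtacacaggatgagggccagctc
C/EBP factors and NF-kB are transcription factors that drive antimicrobial genes in epithelia. Defb6 held 2 matches to TTGCNNAA, beginning 209 and 166 bases before the start, Slpi held 1 at 241 bases and Lcn2 held 1 at 216 bases. The same pattern was present in 9.56% of the 32851 RefSeq promoters of this length. Pglyrp1 held 2 matches to the NF-kB type pattern, beginning 232 and 93 bases before the start, and the pattern was present in 4.93% of promoters. The other patterns searched matched none of the 6 upstream sequences. They were the direct repeat that PPAR and RXR bind, taken as AGGNCA in tandem with 1 base between the copies (0.338% of promoters), the half-site AGGTCA (14%) and the AP-1 type pattern TGANTCA (6.75%). A direct repeat whose open letter is T also holds the half-site, so these 2 searches overlap. A match describes the letters only, and no binding was measured.

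Of the 10 genes, 6 were altered, all higher in Pparg-/-epi mice. They were Defb6, Slpi, Lcn2, Pglyrp1, Pglyrp3 and Npy. A gene was called altered when the absolute log2 fold change (log2FC, Pparg-/-epi over WT, given below with its standard error, SE) was at least 0.6 and the adjusted p, from edgeR's quasi-likelihood test with Benjamini-Hochberg adjustment over all genes, was under 0.05, and every adjusted p below is of this kind unless another fit is named. Over all genes 10.3% were altered, 5.19% higher and 5.08% lower. In 3 of the 10 genes, Defb6, Slpi and Pglyrp3, the lowest Pparg-/-epi mouse was above the highest WT mouse, as was the case in 3.95% of all genes. The median log2FC was 1.5 over the 10 genes and -0.01 over all genes. Several of the genes were named by the study from these same mice, so the count is not independent evidence of a direction. Every gene of the table exceeded 0.5 CPM in at least 6 mice. Among WT mice, Npy did so only in replicate 6 (0.818 CPM) and Ang2 only in replicate 2 (1.96 CPM). Neither gene would be present without the Pparg-/-epi mice, and their direction was largely set by that selection. Npy, at 0.250 CPM in Pparg-/-epi replicate 10, reached 6 mice only with WT replicate 6. Slpi, Lcn2 and Pglyrp1 also needed Pparg-/-epi mice to reach 6, which favoured the same direction. In WT mice Slpi was under 0.5 CPM in replicates 1 and 4, Lcn2 in replicates 4 and 6, and Pglyrp1 in replicates 4, 5 and 6. The count of altered genes includes Npy, Slpi, Lcn2 and Pglyrp1, and the genes without overlap include Slpi. The median log2FC includes these genes and Ang2.

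**Figure D1:**
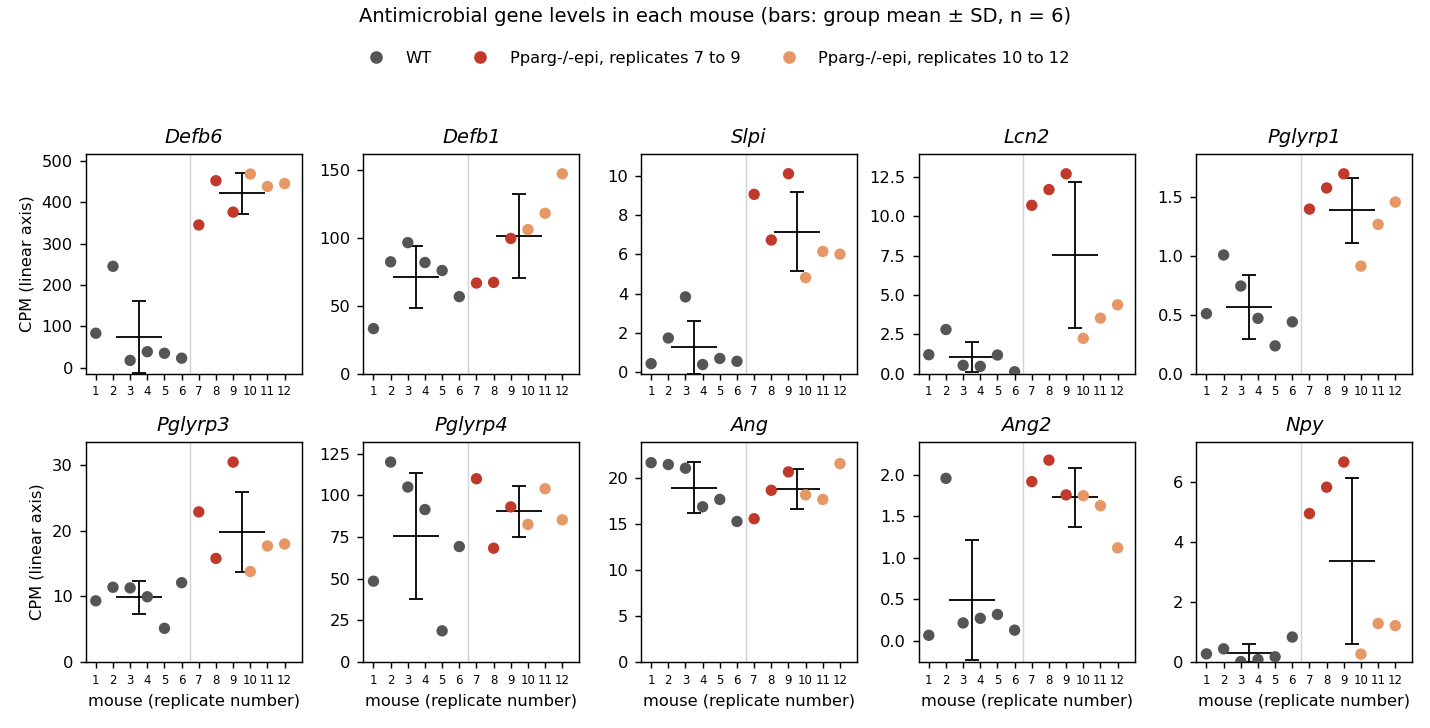
Level of each gene in each mouse, in CPM on a linear axis, against the replicate number, with WT mice in grey and Pparg-/-epi mice in red (replicates 7 to 9) or orange (replicates 10 to 12), and bars for the group mean ± SD (n = 6). Defb6 lies between 345 and 468 CPM in Pparg-/-epi mice, above the WT maximum of 245 CPM, whereas Lcn2 and Npy are high in replicates 7 to 9 and lower in replicates 10 to 12.

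Defb6, a beta-defensin gene on chromosome 8 (19225478 to 19228209, plus strand, mm10), had 17.5, 36.6 and 245 CPM as its lowest, median and highest value in WT mice. In Pparg-/-epi mice the lowest, median and highest values were 345, 442 and 468 CPM. The groups did not overlap, and the spread was far wider in WT mice, with a coefficient of variation of 118%, than in Pparg-/-epi mice (11.6%). Its log2FC was 2.51 (SE 0.57, adjusted p = 0.0109). The WT maximum was replicate 2, and the next highest WT mouse had 83.2 CPM. Without WT replicate 2 the log2FC was 3.40 (SE 0.35, adjusted p = 8.28e-05) and the WT coefficient of variation 65.9%. The 6 Pparg-/-epi mice thus sat near a common level, while the WT mice were spread out.
Defb1, a second beta-defensin gene on chromosome 8 (21776555 to 21795185, plus strand) and one that epithelia express without a stimulus, was not altered. It ranged from 33.2 to 96.4 CPM in WT mice (median 78.9) and from 66.7 to 147 CPM in Pparg-/-epi mice (median 103), and the groups overlapped. This gave a log2FC of 0.50 (SE 0.25, adjusted p = 0.209). In 4 of the 6 Pparg-/-epi mice Defb1 was above every WT mouse, and its lowest values among Pparg-/-epi mice were in replicates 7 and 8. The last beta-defensin gene of the table, Defb14, which is inducible in keratinocytes, was at 3.83 ± 2.31 CPM in WT against 9.01 ± 5.29 CPM in Pparg-/-epi mice, with an adjusted p of 0.109. The other beta-defensin genes of the list were not analysed here.
The chemokine receptor Ccr6, through which beta-defensins attract cells, rose by 2.13 on the log2 scale (SE 0.67, adjusted p = 0.0489), and its chemokine ligand Ccl20 rose by 1.80 (SE 0.53, adjusted p = 0.0384). Mc1r, the melanocortin receptor that some beta-defensins bind, was at 1.99 ± 0.85 CPM in WT against 1.94 ± 0.70 CPM in Pparg-/-epi mice.

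Slpi encodes the secretory leukocyte protease inhibitor, which blocks serine proteases such as elastase and also kills microbes. The gene lies on chromosome 2 (164354070 to 164356507, minus strand). Its lowest, median and highest values were 0.403, 0.639 and 3.84 CPM in WT mice and 4.82, 6.44 and 10.1 CPM in Pparg-/-epi mice. All 6 Pparg-/-epi mice lay above the WT mice, of which replicate 3 was the highest. The genotypes differed by a log2FC of 2.51 (SE 0.52, adjusted p = 0.00707), and without WT replicate 3 by 3.17 (SE 0.40, adjusted p = 0.000786). The counts behind it were small, between 6 and 36 in the WT group and between 58 and 174 in the Pparg-/-epi group.
The table held 3 proteases that Slpi inhibits. The mast cell chymase gene Cma1 rose by 1.45 on the log2 scale (SE 0.31, adjusted p = 0.00727) and the mast cell tryptase gene Tpsb2 by 1.46 (SE 0.42, adjusted p = 0.0341). Klk7, a kallikrein that sheds cells from the stratum corneum, was at 1770 ± 424 CPM in WT against 2400 ± 538 CPM in Pparg-/-epi mice (adjusted p = 0.157). Among the 8 genes of the table that share the WAP domain of Slpi, Slpi was the only one higher and Wfdc3 the only one lower, by a log2FC of -3.43 (SE 0.86, adjusted p = 0.0181). The call of Wfdc3 was lost with limma-voom (adjusted p = 0.0957), which called Wfdc12 higher as well as Slpi, with Pparg-/-epi replicates 7 to 9 alone (0.0968) or 10 to 12 alone (0.0866) and in male mice alone (0.26). The abundant WAP genes Wfdc21 and Wfdc5 were not altered, at 312 ± 113 and 160 ± 50.2 CPM in WT against 275 ± 138 and 120 ± 31.4 CPM in Pparg-/-epi mice.

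Lcn2, on chromosome 2 (32384637 to 32387739, minus strand), encodes lipocalin 2, the siderophore-binding protein described above. WT mice had 0.126 to 2.81 CPM (median 0.859), and Pparg-/-epi mice had 2.25 to 12.7 CPM (median 7.55). The groups overlapped because Pparg-/-epi replicate 10, at 2.25 CPM, was under WT replicate 2, at 2.81 CPM. The log2FC was 2.81 (SE 0.63, adjusted p = 0.0106), and without WT replicate 2 it was 3.40 (SE 0.61, adjusted p = 0.00229). Mmp9, whose protein forms a complex with lipocalin 2, moved the other way, with a log2FC of -1.0 (SE 0.19, adjusted p = 0.0039). Of the 9 lipocalin and siderophore genes in the table, Lcn2 was higher and Mmp9 and Orm2, the latter a plasma-type lipocalin, were lower. Orm1, Orm2 and Orm3 are near-identical copies, so their values are uncertain where reads could not be placed. The most abundant one, Orm1, was at 312 ± 112 CPM in WT against 267 ± 106 CPM in Pparg-/-epi mice.

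Among the peptidoglycan recognition proteins, Pglyrp1 and Pglyrp3 were higher in Pparg-/-epi mice and Pglyrp4 was not altered. Pglyrp1, on chromosome 7 (18884690 to 18890438, plus strand), is the short form that is also stored in neutrophil granules. It was scarce, with 0.237, 0.491 and 1.01 CPM as lowest, median and highest value in WT mice and 0.915, 1.43 and 1.70 CPM in Pparg-/-epi mice. Pparg-/-epi replicate 10 was under WT replicate 2, and the other 5 Pparg-/-epi mice were above every WT mouse. Its log2FC was 1.27 (SE 0.32, adjusted p = 0.0192). Without Pparg-/-epi replicate 9 the adjusted p was 0.0511, and without WT replicate 2 the log2FC was 1.52 (adjusted p = 0.00483).
Pglyrp3, on chromosome 3 (92014583 to 92031584, plus strand), encodes one of the forms secreted by skin and other epithelia. Its lowest, median and highest values were 5.14, 10.6 and 12.1 CPM in WT mice and 13.8, 17.8 and 30.5 CPM in Pparg-/-epi mice. The groups did not overlap, and the log2FC was 1.00 (SE 0.23, adjusted p = 0.0116).
Pglyrp4, of the same class and also on chromosome 3 (90726906 to 90741517, plus strand), ranged from 18.7 to 120 CPM in WT mice (median 80.4) and from 68.3 to 110 CPM in Pparg-/-epi mice (median 89.2). The Pparg-/-epi range lay inside the WT range. This gave a log2FC of 0.26 (SE 0.33, adjusted p = 0.659). The fourth gene of the class, Pglyrp2, an amidase that cleaves peptidoglycan, was at 1.53 CPM in WT against 2.61 CPM in Pparg-/-epi mice, a log2FC of 0.78 with an adjusted p of 0.0744.
Of the 26 genes of the table that sense peptidoglycan or carry its signal, these included, 5 were higher, 1 was lower and 20 were not altered. For comparison, 5.19% of all genes were higher and 5.08% lower. Besides Pglyrp1 and Pglyrp3, the cytosolic sensor of muramyl dipeptide Nod2 rose by 1.48 on the log2 scale (SE 0.24, adjusted p = 0.00177) and Tlr1, the partner of Tlr2 for bacterial lipopeptides, by 1.49 (SE 0.40, adjusted p = 0.0241). Slc46a2, a transporter of muropeptides, rose by 1.00 (SE 0.31, adjusted p = 0.0434). Nlrp1b, an inflammasome sensor, was lower, with a log2FC of -1.41 (SE 0.22, adjusted p = 0.00148). Nod1 and Tlr2 were not altered, with log2FCs of -0.27 and 0.36. The 3 most abundant genes of the list, Xiap, Lyz2 and Irak1, which encode an inhibitor of apoptosis in the Nod2 pathway, a lysozyme and a kinase of the Toll-like receptor pathway, were not altered either, with log2FCs of -0.14, 0.34 and -0.07.

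Ang encodes angiogenin, a secreted ribonuclease of the pancreatic type, and lies on chromosome 14 (51091077 to 51102009, plus strand). It ranged from 15.3 to 21.7 CPM in WT mice (median 19.4) and from 15.6 to 21.6 CPM in Pparg-/-epi mice (median 18.5). The ranges were almost the same, and the log2FC was -0.02 (SE 0.12, adjusted p = 0.934). Of the exon bases of Ang in the authors' annotation, 51.1% are also exon bases of Rnase4 on the same strand, so reads there cannot be given to either gene, and 8.16% of the 75-base stretches of its transcripts occur in Rnase4 or Ang2. The value of Ang is therefore uncertain in level, and Rnase4 was at 255 ± 54.7 CPM in WT against 256 ± 17.0 CPM in Pparg-/-epi mice.
Ang2, on the same chromosome (51195486 to 51195923, minus strand), is by its position an angiogenin-family ribonuclease gene and not the gene of angiopoietin 2, which has another symbol (Angpt2). In WT mice, 5 had 0.0639 to 0.316 CPM and replicate 2 had 1.96 CPM, whereas Pparg-/-epi mice had 1.12 to 2.18 CPM (median 1.75). The single WT mouse thus lay in the Pparg-/-epi range and the other WT mice below it. With all 12 mice Ang2 was not altered (log2FC 1.73, SE 0.63, adjusted p = 0.0838). Without WT replicate 2 the log2FC was 3.10 (SE 0.38, adjusted p = 0.000251). Its counts were small, 37 at most in either group, and 2.31% of the 75-base stretches of Ang2 also occur in Ang.
None of the 9 angiogenin and ribonuclease genes of the table was altered in the quasi-likelihood test, 3 of them had an unadjusted p under 0.05, and the likelihood ratio test, DESeq2 and limma-voom called 1 each. Plxnb2, a receptor of angiogenin, was at 330 ± 28.6 CPM in WT against 395 ± 39.9 CPM in Pparg-/-epi mice (adjusted p = 0.0774), and Rnh1, the intracellular inhibitor of these ribonucleases, was at 213 ± 50.8 and 182 ± 40.8 CPM (adjusted p = 0.462).

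Npy encodes neuropeptide Y, a peptide of sympathetic nerves that also has antimicrobial activity, and lies on chromosome 6 (49822729 to 49829505, plus strand). WT mice had 0 to 13 counts, that is 0 to 0.818 CPM with a median of 0.207, which is close to the level of 3 counts. Pparg-/-epi replicates 7, 8 and 9 had 4.94, 5.82 and 6.66 CPM, and replicates 10, 11 and 12 had 0.250, 1.27 and 1.20 CPM. Replicate 10 lay inside the WT range and the other 5 above it. The genotypes differed by a log2FC of 3.45 (SE 0.82, adjusted p = 0.0135), the largest of the 10 genes and the one with the largest standard error. Npy1r, a receptor of neuropeptide Y, was lower in Pparg-/-epi mice, by a log2FC of -2.96 (SE 0.37, adjusted p = 0.000375), at 9.77 CPM in WT against 1.24 CPM in Pparg-/-epi mice, and the groups did not overlap. The peptide-processing genes Cpe, a carboxypeptidase, and Pam, an amidating enzyme, had log2FCs of 0.50 (adjusted p = 0.0327, below the size set for a call) and 0.10 (adjusted p = 0.783). Dpp4, a peptidase that cuts neuropeptide Y, had a log2FC of 0.40 (adjusted p = 0.314).

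The difference between Pparg-/-epi mice was largest in Npy and Lcn2. The count table names each mouse with a number whose meaning is not given in the sources used here, and replicates 7 to 9, 11 and 12 bear numbers that no WT mouse has, while replicate 10 shares its number with WT replicate 2. The mean of Npy was 5.81 ± 0.86 CPM in replicates 7 to 9 and 0.906 ± 0.569 CPM in replicates 10 to 12 (SD, n = 3), a ratio of 6.41. For Lcn2 the means were 11.7 ± 1.00 and 3.38 ± 1.07 CPM, a ratio of 3.46. A ratio of 2 or more was found in these 2 of the 10 genes and in 8.75% of all genes. Slpi had a ratio of 1.52, Pglyrp3 1.40 and Pglyrp1 1.28, whereas Defb6 had 0.868 and Defb1 0.63. In 4 of the 10 genes, Npy, Lcn2, Slpi and Ang2, replicates 7 to 9 all lay above replicates 10 to 12, as did 23.2% of all genes. Defb1 went the other way, with replicates 7 to 9 (66.7 to 99.5 CPM) all below replicates 10 to 12 (106 to 147 CPM), as did 22.1% of all genes. The difference between these sets of mice was noticed in the data and was not tested.

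**Figure D2:**
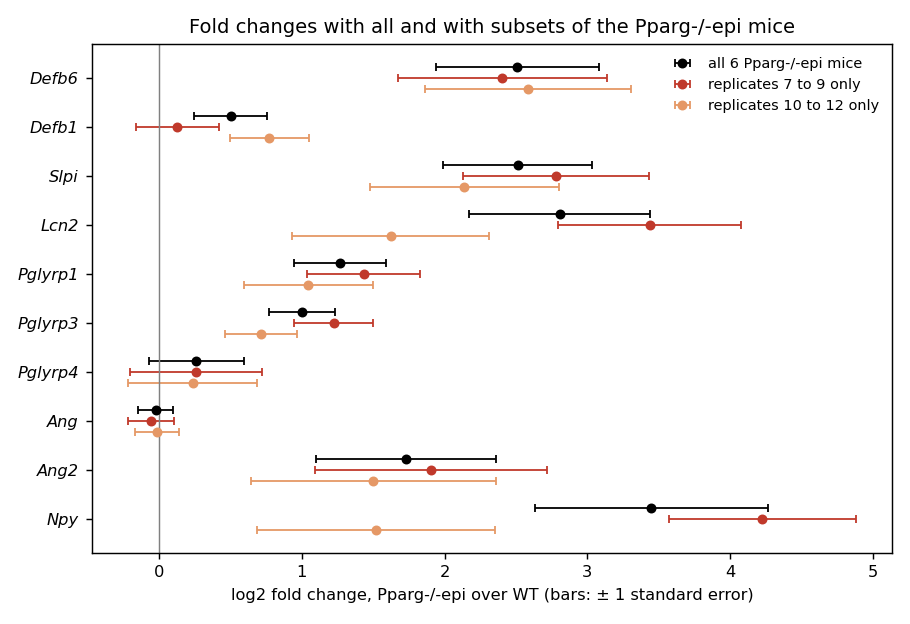
Log2 fold change of Pparg-/-epi over WT for each gene with ± 1 standard error, fitted with all 6 Pparg-/-epi mice (black), with replicates 7 to 9 alone (red) and with replicates 10 to 12 alone (orange), always against the 6 WT mice. The red and orange points lie apart for Npy (4.22 and 1.52) and Lcn2 (3.43 and 1.62) and close together for Defb6 (2.41 and 2.58).

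The 2 sets of Pparg-/-epi mice differed in more than these genes. Replicates 7 to 9 were all female, 12 or 13 weeks old, with RIN of 7.7 to 8.6, and replicates 10 to 12 held 1 female, were 8 to 12 weeks old and had RIN of 5.7 to 7.7, so sex, age, RIN and the number in the mouse name cannot be told apart here. Against the same 6 WT mice, 5 of the 10 genes were altered with replicates 7 to 9 alone (4.57% of all genes higher) and 0 with replicates 10 to 12 alone (1.82% of all genes higher), where 6 had an unadjusted p under 0.05 in the edgeR quasi-likelihood test. No other tool was run on these subsets. All 10 log2FCs kept their sign in both subsets. Defb6 was not altered in either subset, with adjusted p of 0.0596 and 0.0741. Between Pparg-/-epi replicate 10 and WT replicate 2, which share a number, the ratio of Pparg-/-epi to WT CPM was 2.75 for Slpi, 1.91 for Defb6 and 1.22 for Pglyrp3, and 0.907 for Pglyrp1, 0.798 for Lcn2 and 0.588 for Npy. That is 1 mouse of each genotype and carries no test. With the number in the mouse name as a block in the edgeR fit, where the genotype effect rests on that pair alone, 0 of the 10 genes were altered and 0 had an unadjusted p under 0.05 (no other tool was run), and log2FCs ranged from -0.75 for Npy to 1.46 for Slpi.
The difference between genotypes was also compared between the sexes. No gene of the table (0% of the 14533) had a genotype by sex interaction at an adjusted p under 0.05 in the edgeR quasi-likelihood test, with 741 genes at an unadjusted p under 0.05, and no other tool was run for it. Among the 10 genes the smallest adjusted p of the interaction was 0.895, for Ang2. Slpi had log2FCs of 3.11 in female and 1.73 in male mice, and Defb6 of 1.99 and 3.32.

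Compared per exon length, as RPKM, the CPM divided by the exon length in kilobases, Defb6 had the highest level of the 10 genes in both groups and the order below it changed. In WT mice Defb6 was at 228 ± 270 RPKM (122 ± 80.4 RPKM without replicate 2, n = 5) and Defb1 at 77.6 ± 24.6 RPKM, and Defb6 was above Defb1 in 5 of 6 mice. In Pparg-/-epi mice Defb6 was at 1300 ± 151 RPKM and Defb1 at 110.0 ± 33.6 RPKM, and the order held in 6 of 6 mice. Pglyrp4 came next in WT mice at 33.9 ± 17.0 RPKM, followed by Ang at 14.9 ± 2.17 and Pglyrp3 at 8.90 ± 2.29. In Pparg-/-epi mice Pglyrp3, at 17.8 ± 5.48 RPKM, stood next to Ang, at 14.7 ± 1.71 RPKM, and was the higher one in 3 of 6 mice. The 5 scarce genes, Slpi, Lcn2, Ang2, Pglyrp1 and Npy, had mean levels of 0.527 to 1.47 RPKM in WT mice and of 2.04 to 8.85 RPKM in Pparg-/-epi mice. Their order in WT mice lies within their spread: Slpi was above Lcn2 in 2 of 6 mice, and Lcn2 above Ang2 in 3 of 6. Among Pparg-/-epi mice Lcn2 was above Slpi in 3 of 6, Slpi above Npy in 4 of 6 and Npy above Ang2 in 3 of 6. The level of Ang is per its whole exon length, including the part shared with Rnase4.

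**Figure D3:**
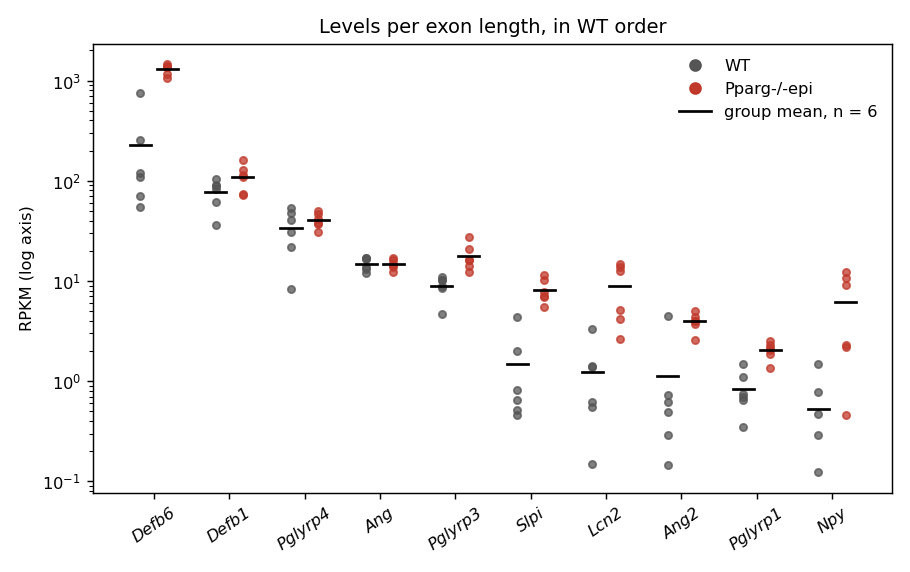
Level per exon length, in RPKM on a log axis, of the 10 genes in the order of their WT means, with a point per mouse (WT grey, Pparg-/-epi red) and a line for the group mean (n = 6). The mean of Defb6 is 228 in WT (122 without replicate 2) and 1300 in Pparg-/-epi mice, the 5 scarce genes lie under 2 RPKM on average in WT mice, and 1 WT mouse with 0 counts of Npy is off the axis.

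The spread within groups differed from gene to gene. Over all genes the median SD of log2 CPM was 0.32 among WT and 0.27 among Pparg-/-epi mice, and Ang lay below that, at 0.21 and 0.17. Defb6 had an SD of 1.39 among WT mice and 0.18 among Pparg-/-epi mice, and Ang2 of 1.19 and 0.30. Without WT replicate 2 the WT values were 0.855 for Defb6 and 0.48 for Ang2. Npy went the other way, with 1.01 among WT and 1.64 among Pparg-/-epi mice.

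Genes whose level followed a given gene most closely over the 12 mice were sought by Pearson's r of log2 CPM, as a description over points that share the 2 genotypes. Defb6 was most like Blk (r = 0.98), Ikzf3 (0.98) and Klk12 (0.98), the first a kinase and the second a transcription factor of lymphocytes and the third a kallikrein. Slpi was most like the kallikrein Klk6 (0.97) and the alarmin S100a8 (0.94). Pglyrp1 was most like Cd6 (0.96), a T cell surface protein, and Tlr1 (0.96), and Lcn2 like D730005E14Rik (0.97), Renbp (0.97) and the chemokine receptor Cxcr4 (0.97). When the mean of each group was first subtracted, so that only the variation among mice of a genotype remained, Lcn2 was most like Nr2f2 (0.98), Robo4 (0.97) and Robo2 (0.97). Of these, Robo4 is known from endothelium. On the same measure Npy was most like Mcoln3 (0.92), Ntrk2 (0.91) and Pcca (0.91), Ang2 like Grap2 (0.94), Trpm6 (0.93) and Cd74 (0.92), and Defb1 like Bnip3 (0.96), Lmbrd1 (0.92) and Macc1 (0.92). Ang was most like Ptchd4 (0.92), and without the subtraction Rnase4, with which it shares exon bases, was among its nearest 3 genes (0.81).

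Markers of other cells were summed beside these results. Of 20 neutrophil markers, 6 were in the table, and the defining granule genes Mpo, Elane, Camp, Ltf and Ngp as well as Ly6g were not analysed here. The 6 summed to 131 to 262 CPM in WT against 109 to 132 CPM in Pparg-/-epi replicates 7 to 9 and 158 to 182 CPM in replicates 10 to 12, mostly from Il1r2 and Mmp9, which were lower in Pparg-/-epi mice, while Cxcr2, S100a8 and S100a9 were higher. Il1r2 alone was at 170 ± 39.6 CPM in WT against 88.7 ± 31.8 CPM in Pparg-/-epi mice, so the sum does not follow the scarcer markers. The remaining marker, Csf3r, was not altered, at 1.26 ± 0.83 CPM in WT against 2.82 ± 0.80 CPM in Pparg-/-epi mice. Its log2FC was 1.14 (SE 0.39, adjusted p = 0.0688). S100a8 and S100a9 are also made by stressed keratinocytes. Cxcr2, a chemokine receptor of neutrophils, ranged from 0 to 45 counts in the WT group and from 95 to 267 in the Pparg-/-epi group, with a log2FC of 3.55 (SE 0.73, adjusted p = 0.00662). The part of neutrophils in the levels of Lcn2, Slpi and Pglyrp1 was not tested.
Sums of 7 endothelial markers ran from 9.32 to 155 CPM in WT mice, from 178 to 221 CPM in Pparg-/-epi replicates 7 to 9 and from 39.0 to 84.2 CPM in replicates 10 to 12. Sums of 8 melanocyte and Schwann cell markers ran from 104 to 164 CPM, from 131 to 250 CPM and from 71.5 to 87.0 CPM in the same 3 sets. The only neuronal marker of the table, Tubb3, was at 1.33 ± 0.63 CPM in WT against 3.48 ± 2.88 CPM in Pparg-/-epi mice. It ran from 0.533 to 2.20 CPM in WT mice, from 3.45 to 8.91 CPM in replicates 7 to 9 and from 1.18 to 2.23 CPM in replicates 10 to 12. The noradrenergic genes Th and Dbh were not analysed here. Sums of 14 macrophage markers ran from 97.6 to 895 CPM in WT mice, from 458 to 537 CPM in replicates 7 to 9 and from 286 to 315 CPM in replicates 10 to 12. These sums and Tubb3 were higher in replicates 7 to 9 than in replicates 10 to 12, like Npy and Lcn2. The part of these cell types in the levels of Npy and Lcn2 was not tested. Replicates 7 to 9 also lay above replicates 10 to 12 in 23.2% of all genes. Of the other cell type sums, that of neutrophils was lower in replicates 7 to 9, and the rest overlapped. Keratinocyte sums, for example, ran from 33900 to 50900 CPM in replicates 7 to 9 and from 49700 to 57700 CPM in replicates 10 to 12. Fibroblast sums ran from 7970 to 11300 CPM and from 5380 to 9470 CPM. None of the macrophage markers was altered (edgeR quasi-likelihood test, 1 with an unadjusted p under 0.05, 0 by the likelihood ratio test, 1 by DESeq2 and 1 by limma-voom).

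Beyond the 10 genes, 23 of 50 other antimicrobial genes listed were in the table, and 6 of them were higher and 1 was lower in Pparg-/-epi mice, with a median log2FC of 0.52. Over all genes 5.19% were higher and 5.08% lower. In each of the 6 every Pparg-/-epi mouse was above every WT mouse, as in 3.95% of all genes. 2610528A11Rik, the ligand of the T cell receptor Gpr15, had the largest change, from 3.11 CPM in WT to 46.3 CPM in Pparg-/-epi mice, a log2FC of 3.89 (SE 0.46, adjusted p = 0.000302). S100a8 and S100a9, the calprotectin subunits that bind zinc and manganese, rose by 2.74 (adjusted p = 0.00165) and 2.74 (adjusted p = 0.00403) on the log2 scale. Chga, whose protein is cut into antimicrobial peptides, rose by 2.55 (adjusted p = 0.00116), Krt6a, a wound keratin with antimicrobial fragments, by 2.52 (adjusted p = 0.016), and Lpo, lactoperoxidase, by 1.91 (adjusted p = 0.018). Wfdc3 was the gene that was lower, a call lost with limma-voom (8 higher, 0 lower) and with either set of 3 Pparg-/-epi mice. Krt6a has the near copy Krt6b, and reads that fit both were removed with the multi-mapped ones. The abundant genes Wfdc21 and Rnase4 were not altered.

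**Figure D4:**
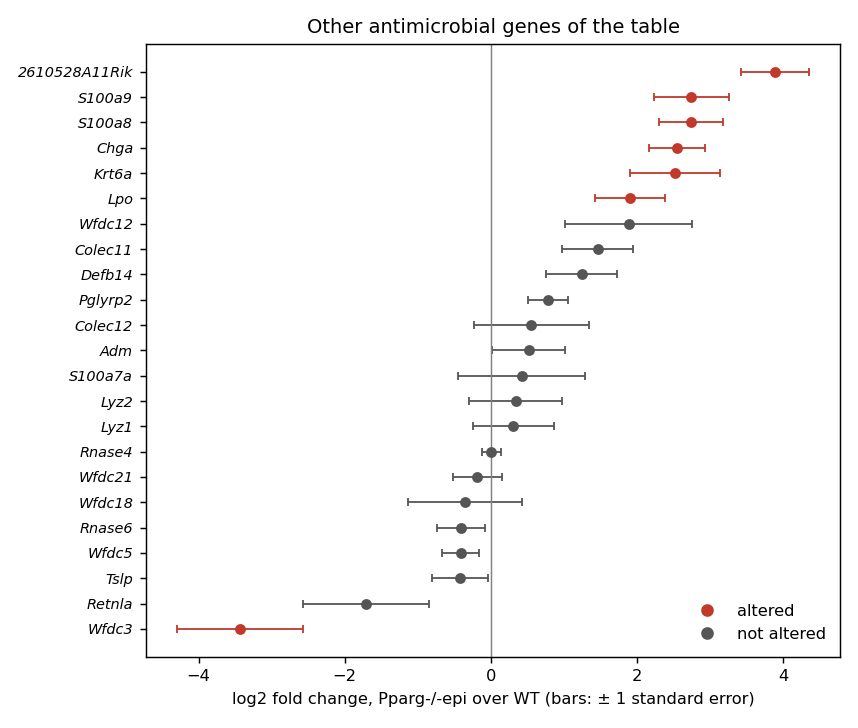
Log2 fold change of Pparg-/-epi over WT, ± 1 standard error, for the 23 other antimicrobial genes of the table, with altered genes in red and the rest in grey. The 6 altered genes on the right run from Lpo (1.91) to 2610528A11Rik (3.89), and the altered gene on the left is Wfdc3 (-3.43).

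Regulators known to drive antimicrobial genes in keratinocytes were read from a list of 28, all in the table, of which 4 were higher and 24 were not altered. The share of higher genes over the whole table was 5.19%. Bcl3, a nuclear IκB protein, rose by 1.91 on the log2 scale (SE 0.30, adjusted p = 0.00134) and Vdr, the vitamin D receptor, by 1.01 (SE 0.23, adjusted p = 0.012). Nfkb2 and Nfkbiz, a subunit and a cofactor of NF-kB, rose by 0.63 (adjusted p = 0.00342) and 0.62 (adjusted p = 0.0143), close to the size set for a call. The C/EBP genes Cebpa, Cebpb and Cebpd were not altered, with log2FCs of 0.14, 0.34 and -0.27 and adjusted p of 0.647, 0.0809 and 0.609. The receptor genes Il17ra and Il22ra1, through which interleukins 17 and 22 act on keratinocytes, had log2FCs of 0.03 and -0.18, and Tnfrsf1a, a TNF receptor, of 0.26, none of them altered. Below the size set for a call were Il6ra, an interleukin 6 receptor, with a log2FC of -0.59 (adjusted p = 0.0296), and Il1rap, a subunit of the interleukin 1 receptor, with -0.46 (adjusted p = 0.00337), where every Pparg-/-epi mouse was under every WT mouse.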

How the data were processed

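RNA of scraped dorsal epidermis was sequenced as paired 75-base reads. The authors aligned reads with STAR 2.5.2b to mm10, removed multi-mapped reads and deposited counts per gene from featureCounts (Subread 1.5.1; versions per the submitters' processing notes), not normalized; the strand setting is not given in the sources used here. The 2800 blank rows were dropped, and every listed gene exceeded 0.5 CPM in at least 6 mice. The gene-by-mouse counts were normalized with TMM and compared with edgeR 4.0.16 (R 4.3.3, quasi-likelihood test, genotype as the only term, Benjamini-Hochberg over 14533 genes). The likelihood ratio test named in the study's methods, DESeq2 1.42.0, limma-voom (limma 3.58.1), other normalizations, covariates and mice left out were alternatives. Log2 CPM used a prior count of 2. Shared 75-base stretches were counted in GENCODE transcripts of the same build. Each library is a separate mouse. Figures were drawn with matplotlib 3.10.9. Genes named were all 10 members, altered and most abundant genes of fixed lists, and the 3 genes most like each member, though not all are named; Cxcr2 and other list genes beyond that rule were chosen with their values seen. Members, lists, motifs and tests were chosen with earlier results of these data known. The 2 subsets of Pparg-/-epi mice and the block on the number in the mouse name were chosen after the data were seen. The libraries of Pparg-/-epi replicates 11 and 12 were matched to mice through the study's sample sheet.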

Additional observations from a re-analysis of the deposited data

Results flagged for a closer look

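In Defb6 and Ang2, WT replicate 2 lay apart from the remaining WT mice by more than the 95% critical gap for groups of 6, at 245 CPM for Defb6, where the next WT mouse had 83.2 CPM, and at 1.96 CPM for Ang2, where the next had 0.316 CPM. The 10 genes gave 20 groups, of which 2 were picked out in this way. Chance alone picks out about 1 group in 20 if values are normally distributed, which CPM on a linear scale need not be. Both groups were picked out by the same mouse, so they are not independent of each other.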

How the results depend on the processing

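The number of altered genes among the 10 was 6 or 7 with other tests, other normalizations and sex, RIN or age as covariate, and 5 to 7 when each mouse was left out in turn. It was 2 of the 5 genes that kept 10 or more counts in every mouse, 1 in female mice alone, 0 in male mice alone (3 at an unadjusted p under 0.05, edgeR quasi-likelihood test) and 0 with Pparg-/-epi replicates 10 to 12 alone. Of all genes 1493 were altered, 1116 to 2249 with 1 mouse left out (2249 without WT replicate 2), 651 in female and 18 in male mice, and 559 with Pparg-/-epi replicates 10 to 12 alone. Of the other antimicrobial genes 7 were altered, 7 to 8 with 1 mouse left out, 0 in male mice (8 at an unadjusted p under 0.05) and 4 with Pparg-/-epi replicates 10 to 12 alone. The subsets hold fewer mice; the cause of the lower counts was not tested further. The log2 fold change of Ang crossed 0, from -0.077 to 0.0096 with 1 mouse left out, 0.0052 with sex as covariate and 0.019 in female mice. Ang2 was altered by the likelihood ratio test, DESeq2, limma-voom, with RIN as covariate and without WT replicate 2. No paired analysis was run because the labels used here do not pair WT with Pparg-/-epi mice, and the replicate numbers only label the libraries. A block on the number in the mouse name, chosen after seeing the data, rests on WT replicate 2 and Pparg-/-epi replicate 10 alone and left 0 of the 10 genes altered (0 at an unadjusted p under 0.05), 2 of the other antimicrobial genes and 238 of all genes, and log2 fold changes reversed for Npy (-0.75), Pglyrp4 (-0.54), Lcn2 (-0.32), Ang2 (-0.17) and Pglyrp1 (-0.14). Small counts limit Npy, Ang2, Pglyrp1, Slpi and Lcn2.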
